A study of Mus musculus with 30 samples.

Results

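CD4+ T cell preparations from mice primed with antigen in adjuvant were compared with CD4+ preparations from unimmunised mice. The comparison uses 6 of the 30 arrays of the study, 3 per group, and every gene with 1 symbol in the platform annotation. A gene with several probe sets is represented by the one that was brightest on average in all 30. That gave 17097 genes, of which 10322 exceeded the array median on 3 or more of the 15 CD4+ arrays and were tested. All mice were DO11.10 RAG2-/- on the BALB/c background, 8 to 10 weeks old, so the controls carried the same transgenic receptor and the same deletion as the primed mice. The primed mice had received 100 micrograms of ovalbumin (OVA) in complete Freund's adjuvant under the skin, and their cells were taken from the axillary lymph nodes after 10 days. The unimmunised mice had received nothing, and their cells came from spleen and lymph nodes pooled together. Tissue and immunisation therefore changed together and cannot be told apart in these 6 arrays. Quoted beside them are primed mice given control IgG, whose cells also came from axillary nodes. The filter and the shared estimate of the spread also used CD4+ arrays of primed mice given abatacept and of orally tolerised mice. CD4+ cells were isolated by magnetic negative selection with a purity that the labels put above 90%. Values are on the log2 scale, and errors are standard deviations of 3 arrays or standard errors (SE) of a difference.

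In DO11.10 mice the T cell receptor recognises a peptide of ovalbumin, and loss of RAG2 stops the mouse from rearranging receptors of its own, so B cells and other T cell clones do not form. A naive CD4+ T cell that meets its peptide on a dendritic cell signals through the receptor and CD28. It then expresses the transcription factors of the NFAT, NF-kB, EGR and IRF families, further costimulatory and inhibitory receptors, and the high-affinity receptor for interleukin-2. It divides, and part of its progeny becomes follicular helper, Th1, Th2, Th17 or induced regulatory cells. The spleen also holds red pulp macrophages and, in the mouse, makes red cells and granulocytes, which lymph nodes do not.

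Promoter sequences of 9 genes are shown because the results below turn on the groups to which these genes belong. They are bases upstream of the annotated start, read 5′ to 3′ on the gene's own strand from the RefSeq promoter table of build GRCm38.p6. Capitals mark the letters of a motif searched on both strands. The first is Ctla4, whose rise was the largest among the genes tested off the Y chromosome, with the core letters of an NFAT site (GGAAAA, or TTTTCC on the other strand).
Ctla4 (chr1:60908875-60909024, plus strand): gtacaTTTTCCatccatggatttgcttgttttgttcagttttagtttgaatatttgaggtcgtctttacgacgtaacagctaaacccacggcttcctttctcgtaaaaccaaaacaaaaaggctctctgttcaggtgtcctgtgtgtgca
The next 4 belong to erythroid genes, all lower in primed preparations, with the letters that GATA factors bind (AGATAA or TGATAA). The first of these factors is the master regulator of red cell development.
Klf1 (chr8:84901882-84901981, plus strand): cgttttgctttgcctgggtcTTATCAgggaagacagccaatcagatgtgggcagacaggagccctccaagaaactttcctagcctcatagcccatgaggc
Epor (chr9:21963577-21963676, minus strand): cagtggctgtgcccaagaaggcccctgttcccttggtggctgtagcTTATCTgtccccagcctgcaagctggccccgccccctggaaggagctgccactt
Ermap (chr4:119189996-119190095, minus strand): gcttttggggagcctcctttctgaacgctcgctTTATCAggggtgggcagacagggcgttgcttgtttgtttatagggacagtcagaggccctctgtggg
Rhag (chr17:40811049-40811148, plus strand): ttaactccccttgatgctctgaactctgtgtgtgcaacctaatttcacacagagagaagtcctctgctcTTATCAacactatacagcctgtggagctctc
The last 4 belong to DNA replication genes, also lower in primed preparations, with the letters of an E2F site (TTTGGCGC or TTTCCCGC). E2F factors switch on replication genes before S phase.
Mcm6 (chr1:128359706-128359855, minus strand): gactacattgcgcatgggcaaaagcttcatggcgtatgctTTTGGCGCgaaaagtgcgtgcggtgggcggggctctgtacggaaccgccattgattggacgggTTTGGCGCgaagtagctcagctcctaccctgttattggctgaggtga
Cdc6 (chr11:98908001-98908150, plus strand): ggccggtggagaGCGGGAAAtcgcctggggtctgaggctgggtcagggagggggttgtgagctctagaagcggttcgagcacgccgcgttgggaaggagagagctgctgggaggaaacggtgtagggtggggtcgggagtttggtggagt
Mcm5 (chr8:75109359-75109508, plus strand): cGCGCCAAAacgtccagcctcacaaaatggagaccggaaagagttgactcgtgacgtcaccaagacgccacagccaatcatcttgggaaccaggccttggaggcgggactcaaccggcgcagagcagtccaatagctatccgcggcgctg
Pola1 (chrX:93632156-93632305, minus strand): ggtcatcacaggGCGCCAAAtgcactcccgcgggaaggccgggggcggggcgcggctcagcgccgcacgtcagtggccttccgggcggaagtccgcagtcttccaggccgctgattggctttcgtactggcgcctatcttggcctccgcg
Over windows from 250 bases before to 50 bases after the start, the GATA letters were in 9 of 13 windows of erythroid marker genes (69.2%; 12 of 15 genes had a window) and in 18.6% of all 32851 windows. The E2F letters were in 11 of 36 windows of replication genes (30.6%; 31 of 38 genes had a window) and in 1.56% of all windows. Among genes more than 2-fold higher after priming, with windows for 112 of 149, the NFAT letters were in 20.3% of 143 windows against 23.4% of all. The AP-1 letters (TGANTCA) were in 6.99% of those windows against 7.81% of all. Letters of Krüppel-like factors (CACCC) were in 72% of them against 57.5% of all, and in 65.7% of windows of genes more than 2-fold lower. For the GATA, E2F and cyclic AMP response element (TGACGTCA) letters the shares were 15.4%, 1.4% and 0.699%, against 18.6%, 1.56% and 1.79% of all. NFAT and E2F letters can share bases where they meet, and no motif contains another. These shares describe letters in a window and do not show binding.

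Replicate arrays correlated closely, at 0.993 to 0.9942 across probe sets within the primed group, 0.9922 to 0.9937 within the unimmunised group and 0.9459 to 0.956 between them. Their medians lay between 4.4555 and 4.538. A group mean at or below that level was not shown to be above background, so a fold against it is not exact. Transcripts of several other blood cells were lower in the primed than in the unimmunised arrays, as described for each cell type below. The primed mean was at or below the highest array median for 15 of 16 neutrophil and 11 of 11 red pulp macrophage genes tested. It was so for only 7 of 15 erythroid and 3 of 9 natural killer genes. For bulk RNA, fewer cells of a type and less RNA per cell cannot be told apart. The mean level of 8 T cell reference genes (Cd3d, Cd3e, Cd3g, Cd247, Cd2, Lat, Zap70 and Thy1) was 10.5 to 10.54 in primed and 9.55 to 9.666 in unimmunised arrays, a difference of 0.92. List counts, and genes whose call or sign changes, are therefore also given relative to these genes, a scaling under which the median of all tested genes moved from 0.02 to -0.89. The Cd247 probe set used differed by 0.04, and without it the reference difference was 1.04 and the median of all genes -1.02. Male-specific transcripts differed as well. Eif2s3y on the Y chromosome read 8.49, 8.82 and 8.54 in the primed arrays and 2.46, 2.70 and 2.53 in the unimmunised arrays, and it averaged 2.51 ± 0.12 (SD, n = 3) in the primed arrays with control IgG. In CD11c+ arrays it averaged 8.58 after priming and 2.59 without it. Within the 6 arrays the male-specific transcripts and the immunisation changed together. The primed arrays with control IgG, in which Eif2s3y was low, differed from the same unimmunised arrays by 5.48 for Ctla4, 4.29 for Icos and -7.75 for S100a8, where the primed arrays differed by 5.42, 4.45 and -8.04.

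Differences were widespread. In limma, 4896 of 10322 genes passed an adjusted p of 0.05 (47.4%), 2403 of them higher (23.3%) and 2493 lower (24.2%) in primed preparations. The sizes were not symmetric. A change of more than 2-fold was called higher for 149 genes (1.44%) and lower for 642 genes (6.22%). At least 8-fold differences were called for 15 genes upward and 280 downward. Of the 642 genes more than 2-fold lower, 417 had a primed mean at or below the highest array median, where 11.7% of all tested genes lay. Relative to the T cell genes, 221 genes were higher (2.14%) and 9341 lower (90.5%). All 149 genes that were more than 2-fold higher as deposited were among the higher ones. Their sign was fixed in advance, because this scaling subtracts 0.917 from differences that already exceeded 1. On that scale 36 genes were more than 2-fold higher. The primed arrays and the primed arrays with control IgG differed in 9 genes (0.0872%), namely Astx6, Ccl5, Eif2s3y, Jun, Kdm5d, Orly, Ssty1, Ssty2 and Uty, of which all but Astx6, Ccl5 and Jun lie on the Y chromosome. When the filter on low values used the 12 lymph node arrays alone, without the unimmunised arrays, 324 genes were more than 2-fold lower.

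**Figure D1:**
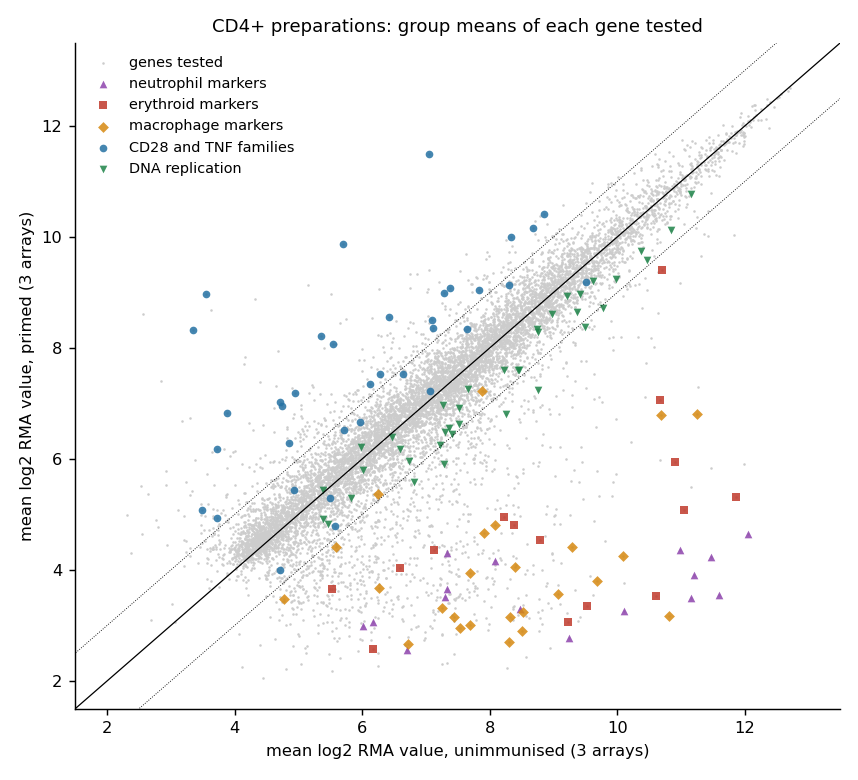
Group means of each tested gene on the log2 scale, unimmunised preparations on the horizontal axis and primed preparations on the vertical axis, with the line of equal levels, dotted lines at 2-fold and the genes of several lists in colour. Most erythroid, neutrophil and macrophage markers lie far below the line, and most genes of the CD28 and TNF families lie above it.

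The receptors of the CD28 family set how a T cell responds to antigen. Of 18 CD28 family and immunoglobulin coreceptor genes tested, 14 rose and 1 fell, with a median difference of 1.57, and 12 were higher and 4 lower relative to the T cell genes. Ctla4, the inhibitory receptor that competes with CD28 for CD80 and CD86, read 9.24, 8.5 and 9.17 in primed and 3.49, 3.58 and 3.57 in unimmunised arrays. The primed arrays were thus well above the array medians and the unimmunised arrays below them, and the difference was 5.42 (SE 0.19, adjusted p = 1.35e-10). Icos, the costimulatory receptor of follicular helper cells, read 11.60, 11.51 and 11.40 in primed and 7.038, 7.108 and 6.998 in unimmunised arrays. The groups lay far apart beside the small spread within each, and all 3 Icos probe sets gave differences of 4.15 to 4.45. Izumo1r, known as folate receptor 4 on regulatory and anergic cells, read 10.00, 9.71 and 9.92 against 5.82, 5.53 and 5.76, a rise of 4.18 (SE 0.14, adjusted p = 7.7e-11). Cd28 itself rose less, by 1.48 (SE 0.09, adjusted p = 1.87e-08). Cd5 and Cd6, which dampen receptor signals, rose by 2.85 and 2.54. Slamf6, an adhesion receptor between T and B cells, rose by 2.14, Btla by 1.55 and Cd96 by 1.71. Pdcd1, which encodes PD-1, read 4.76, 5.23 and 5.25 against 3.26, 3.58 and 3.63, a rise of 1.59 from a level below the array medians. Lag3 was the member that fell, by 0.71 (adjusted p = 0.0305), and this call was lost without primed replicate 3 (adjusted p = 0.14), unimmunised replicate 1 (0.0528) or unimmunised replicate 3 (0.104). In primed arrays with control IgG, Ctla4, Icos and Izumo1r averaged 9.02 ± 0.13, 11.34 ± 0.19 and 10.06 ± 0.16 (SD, n = 3), close to the primed means of 8.97, 11.50 and 9.88.

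**Figure D2:**
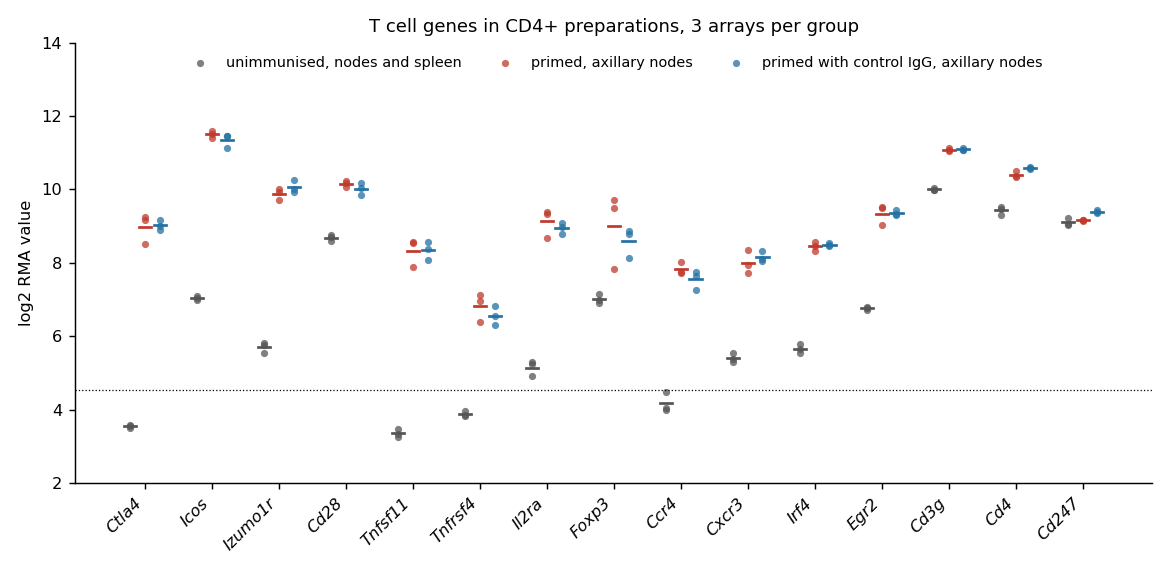
Log2 values of T cell genes in unimmunised, primed and primed preparations with control IgG, 3 arrays per group as points with a bar at their mean, and the highest array median as a dotted line. For Ctla4, Icos and Il2ra both primed groups lie at 8.5 or above and the unimmunised arrays at 7.11 or below.

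The TNF superfamily holds ligands and receptors through which T cells help or kill other cells and survive. Of 18 tested members 16 rose and 2 fell (median 1.34), and 12 were higher and 2 lower relative to the T cell genes. Among ligands, Tnfsf11, which encodes RANKL and acts on dendritic cells and osteoclasts, read 8.54, 7.89 and 8.56 in primed and 3.33, 3.46 and 3.26 in unimmunised arrays. Only the primed group was above the array medians, and the difference was 4.98 (SE 0.22, adjusted p = 1.2e-09). A second probe set of Tnfsf11 was below the array medians in both groups, at 3.68 and 2.91. Lta, Tnfsf8 and Tnfsf14, which encode lymphotoxin alpha, CD30 ligand and LIGHT, rose by 2.44, 2.22 and 1.25. Cd40lg, the ligand by which helper T cells activate B cells and dendritic cells, read 8.54, 8.60 and 8.35 against 7.42, 7.07 and 6.78, a rise of 1.41 (SE 0.17, adjusted p = 1.29e-05). Among receptors, Tnfrsf4 (OX40) rose by 2.95, Tnfrsf9 (4-1BB) by 2.25 and Tnfrsf18 (GITR) by 1.70. Traf1, an adaptor of these receptors, rose by 1.66. The death ligand Fasl fell by 0.80 (adjusted p = 0.0174), and this call was lost without primed replicate 2 (adjusted p = 0.0728) or unimmunised replicate 1 (0.0579).

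Most genes of the receptor complex and its first signalling steps rose. Of 27 tested, 25 rose and 0 fell, with a median of 1.03. Relative to the T cell reference genes, 6 of which belong to this list, 9 were higher and 8 lower and the median was 0.11, which became -0.011 with Cd247 left out of the reference. Cd3g read 11.08, 11.04 and 11.13 in primed and 9.99, 10.05 and 9.99 in unimmunised arrays, a difference of 1.07 (SE 0.06, adjusted p = 1.11e-08). Cd3d rose by 1.04 and Cd4 by 0.96, and relative to the T cell genes neither was called (0.13 and 0.05). Cd3e rose by 0.71, and its sign turned relative to the T cell genes (-0.21). These chains define the cell type, and Cd4 averaged 10.40 ± 0.09 and 9.44 ± 0.11 (SD, n = 3), so both groups carried the markers of their label. The adaptor Trat1 and the kinase Zap70 went beyond the list's median, at 2.02 and 1.67, and stayed higher relative to the T cell genes (1.10 and 0.75). Themis, a T cell scaffold protein, rose by 1.34, Lat, the membrane hub of the receptor signal, by 1.06, and Prkcq, the kinase of the CD28 pathway, by 1.01. Lat and Prkcq were not called relative to the T cell genes (0.14 and 0.097). Ptprc, the leukocyte phosphatase CD45, rose by 0.36, and it was lower relative to the T cell genes (-0.56). The members that did not pass were Malt1 at 0.04 and Cd247 at 0.04, both negative relative to the T cell genes (-0.88 and -0.87). The 3 other probe sets of Cd247, the zeta chain, differed by 1.01 to 1.41, and the mean of its 4 probe sets rose by 0.88 (adjusted p = 1.55e-07).

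Of 34 cytokine receptor and SOCS genes, 22 rose and 5 fell (median 0.52), and relative to the T cell genes the median changed sign to -0.39, with 9 higher and 18 lower. Il2ra, which raises the affinity of the receptor for interleukin-2, read 9.33, 8.69 and 9.38 in primed and 5.29, 5.23 and 4.92 in unimmunised arrays. No primed array came within 3 log2 units of an unimmunised one, and the difference was 3.99 (SE 0.17, adjusted p = 7.92e-10), with 3.14 at a second probe set. Jak3, the kinase of the common gamma chain, rose by 2.14. Stat4 rose by 1.002 and was not called relative to the T cell genes (0.084). Il6st, the signalling chain gp130, rose by 1.43 and Il27ra by 1.34. Il1r2, a decoy receptor for interleukin-1, read 6.39, 5.66 and 6.34 against 3.68, 3.49 and 3.77, a rise of 2.48. Cish and Socs3, feedback inhibitors of cytokine signals, rose by 1.31 and 1.39. The falling members included Il10ra by 1.81, Il18rap by 1.42 and Ifngr1 by 0.83, whose unimmunised CD11c+ means of 8.41, 6.72 and 9.52 were compared with 6.71, 7.71 and 8.66 in unimmunised CD4+ arrays.

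Only 9 of 21 listed helper cytokines passed the filter, of which 4 rose and 2 fell. Il2, the T cell growth factor, read 5.72, 5.52 and 4.87 in primed and 4.03, 3.78 and 3.84 in unimmunised arrays, a rise of 1.49 (SE 0.21, adjusted p = 6.68e-05). Penk, which encodes the enkephalin precursor, read 6.17, 4.79 and 6.21 against 3.48, 3.55 and 3.66. The groups did not overlap, though primed replicate 2 stood apart below the other primed arrays. Il16 rose by 1.03, with no call relative to the T cell genes (0.12), and Ebi3, a subunit of interleukins 27 and 35, by 0.70, with a sign that turned relative to the T cell genes (-0.22). Ifng, the signature cytokine of Th1 and natural killer cells, read 4.94, 3.86 and 3.86 in primed and 6.16, 6.23 and 6.34 in unimmunised arrays, a fall of 2.03 (SE 0.25, adjusted p = 1.97e-05). Xcl1, a chemokine of activated T and natural killer cells, fell by 2.54.

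Genes of follicular helper cells, which guide B cells in the follicle, were mostly higher. Of 14 tested 10 rose and 1 fell (median 1.65), and relative to the T cell genes 8 were higher and 3 lower. Batf, needed for this lineage and for Th17 cells, read 9.49, 9.18 and 9.54 against 7.16, 6.85 and 7.13, a rise of 2.36 (SE 0.14, adjusted p = 1.47e-08). Sh2d1a, the SLAM adaptor SAP, rose by 1.72 and Cd200 by 2.32. Cxcr5, the receptor that leads cells into the follicle, read 5.81, 4.29 and 5.12 against 2.82, 3.06 and 3.45, a rise of 1.97 (SE 0.43, adjusted p = 0.00206) with primed replicate 2 below the array medians. Bcl6, the lineage's transcription factor, rose by 0.94, and relative to the T cell genes it was not called (0.02). Pou2af1 rose by 1.36, and this call too was lost relative to the T cell genes (0.44). Cebpa, a myeloid transcription factor on this list, fell by 1.93. These mice lack B cells, the partners of this lineage.

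Of 17 regulatory T cell genes 11 rose and 1 fell (median 1.70), and relative to the T cell genes 9 were higher and 6 lower. Foxp3, the transcription factor that defines the lineage, read 9.71, 7.83 and 9.51 in primed and 6.91, 6.98 and 7.16 in unimmunised arrays. All primed arrays were above all unimmunised ones, but replicate 2 was nearer to the unimmunised group than to the other primed arrays. The difference was 1.998 (SE 0.37, adjusted p = 0.000509), and it was 2.59 without that array. Ikzf2 and Ikzf4, which encode Helios and Eos, rose by 2.77 and 2.10. Itgae, the integrin chain CD103, read 6.95, 5.82 and 7.10 against 4.18, 4.75 and 4.41, a rise of 2.17. The member that fell was Entpd1, the ectoenzyme CD39, at 5.53, 4.27 and 5.21 against 7.49, 7.71 and 7.53, a difference of -2.57 (SE 0.27, adjusted p = 3.27e-06). Entpd1 is also a gene of myeloid cells, and it averaged 9.52 in unimmunised CD11c+ arrays. Primed replicate 2 was the lowest primed array for 15 of the 17 genes (88.2%), against 45% of all tested genes.

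Genes of Th1 and cytotoxic cells split. Of 20 tested 5 rose and 13 fell (median -1.07), and relative to the T cell genes 2 were higher and 17 lower. Over all genes 2.14% were higher and 90.5% lower on that scale. Cxcr3, the chemokine receptor of Th1 cells, read 8.34, 7.71 and 7.94 in primed and 5.54, 5.30 and 5.37 in unimmunised arrays, a rise of 2.59 (SE 0.17, adjusted p = 5.21e-08). Cxcr6 rose by 1.62. The transcription factors of the lineage did the reverse. Tbx21, which encodes T-bet, read 6.10, 6.10 and 5.70 against 7.29, 7.46 and 7.53, a fall of 1.46 (SE 0.16, adjusted p = 4.45e-06), and Eomes fell by 1.43. Gzma, the granule protease granzyme A, read 7.43, 7.73 and 6.74 against 11.21, 11.30 and 11.30, a fall of 3.98 (SE 0.23, adjusted p = 1.19e-08). The chemokine genes Ccl3 and Ccl5 fell by 3.62 and 2.55, and Nkg7 fell by 2.57. Of these, Ccl5 was the gene that also differed between the primed groups, at 8.12, 8.16 and 7.77 without and 6.35 ± 0.40 (SD, n = 3) with control IgG. The list of natural killer cell markers, which shares Gzma, Prf1 and Eomes with the Th1 list, was mostly lower too. Of 9 tested 2 rose and 5 fell (median -1.05), with their summed level at 9.778 to 9.894 in primed and 11.86 to 11.96 in unimmunised arrays. Gzma is part of that sum. Prf1 was counted as a rise, though its other probe set fell by 1.51. The defining receptor Ncr1 read 4.49, 4.45 and 4.31 against 7.41, 7.10 and 7.13, so it was near the array medians in primed preparations. The part of natural killer cells in the fall of the Th1 genes was not tested.

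Few genes of the other helper lineages passed the filter. Beside the counts below, 23.3% of all tested genes rose and 24.2% fell. Of 5 Th2 genes 3 rose and 1 fell (median 0.47, or -0.45 relative to the T cell genes). Ccr4, a chemokine receptor of Th2 and regulatory cells, read 8.02, 7.75 and 7.72 against 4.48, 4.03 and 3.99, a rise of 3.66 (SE 0.20, adjusted p = 7.38e-09). Gata3, the Th2 transcription factor, read 7.07, 7.10 and 7.28 against 5.67, 5.78 and 5.70, a rise of 1.44. Pparg fell by 3.4997, from 6.62 to 3.12, and averaged 9.47 in unimmunised CD11c+ arrays. Of 8 Th17 genes 4 rose and 2 fell (median 0.59, or -0.33 relative to the T cell genes). The orphan receptor gene Rora rose by 1.09, Il1r1 by 1.48 and the chemokine receptor gene Ccr6 by 1.05. Rora (0.17) and Ccr6 (0.13) were not called relative to the T cell genes. Ahr and Tmem176b fell by 1.07 and 1.36.

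Transcription factors induced by receptor signals were mostly higher. Of 27 tested 18 rose and 3 fell (median 0.91), and relative to the T cell genes 9 were higher and 12 lower, with a median of -0.0025. Irf4, which scales effector differentiation to the strength of the signal, read 8.57, 8.33 and 8.47 in primed and 5.66, 5.79 and 5.54 in unimmunised arrays, a rise of 2.79 (SE 0.11, adjusted p = 4.25e-10). Egr2, a factor of anergy and of the restraint of effector cells, read 9.49, 9.02 and 9.52 against 6.76, 6.72 and 6.80, a rise of 2.58 (SE 0.13, adjusted p = 3.45e-09). Egr1 rose by 1.56, and Egr3 did not pass (-0.05), although it was called lower relative to the T cell genes (-0.96, adjusted p = 1.16e-05). The NF-kB genes Rel, Relb and Nfkb2 rose by 1.31, 1.62 and 1.37, as did the inhibitor Nfkbia by 1.59. Nfatc1 and Nfatc2 rose by 0.91 and 1.19, and neither was called relative to the T cell genes, where Nfatc1 turned to -0.0025. Of the NR4A receptors, which mark receptor signals within hours, Nr4a3 rose by 1.38, while Nr4a1 did not pass at 0.24 and turned to -0.68 relative to the T cell genes. Irf8, a factor of dendritic cells and macrophages, fell by 1.51.

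The immediate early genes, which cells switch on within minutes of a stimulus, took both directions. Of 16 tested 7 rose and 4 fell (median 0.22, or -0.70 relative to the T cell genes). The share of falls was near the 24.2% of all tested genes, of which 23.3% rose. The median of all genes relative to the T cell genes was -0.89. Dusp4, a phosphatase of the MAP kinases, read 6.93, 5.99 and 7.14 against 3.01, 3.52 and 3.01, a rise of 3.51 (SE 0.33, adjusted p = 1.32e-06). Fosl2, a subunit of AP-1, read 5.00, 5.42 and 4.92 against 8.24, 8.00 and 8.22, a fall of 3.04 (SE 0.17, adjusted p = 7.38e-09), and unimmunised CD11c+ arrays averaged 8.20. Fos, Ier3 and Klf6 fell by 1.33, 1.79 and 0.46. Jun did not pass, at 9.18, 9.16 and 9.23 against 9.04, 9.08 and 9.02, with a difference of 0.15 that turned to -0.77 relative to the T cell genes. It averaged 8.26 ± 0.31 (SD, n = 3) with control IgG.

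Genes of naive and quiescent T cells were mostly higher as deposited and, like most genes, lower relative to the T cell genes. Of 19 tested 12 rose and 1 fell (median 0.34), and relative to the T cell genes 0 were higher and 17 lower (median -0.58). Over all tested genes 23.3% rose and 24.2% fell, and 90.5% were lower relative to the T cell genes (median -0.89). Satb1, Lef1 and Bach2, transcription factors of naive cells, rose by 0.81, 0.75 and 0.60, and each changed sign relative to the T cell genes (-0.11, -0.16 and -0.32). Klf2, which keeps cells quiescent and recirculating, was the member that fell, at 8.33, 8.67 and 8.42 against 8.85, 8.89 and 8.81, a difference of -0.38 (SE 0.09, adjusted p = 0.00496). Of 19 memory and activation surface genes 6 rose and 7 fell, and relative to the T cell genes 1 was higher and 16 lower (median -0.94). Cd69, an early activation marker that retains cells in lymph nodes, read 8.54, 8.42 and 8.59 against 7.12, 7.20 and 6.92, a rise of 1.44 (SE 0.13, adjusted p = 7.96e-07). The integrin chain Itga4 fell by 1.66. Cd24a, abundant on red cell precursors and granulocytes, read 6.36, 5.26 and 5.92 against 11.39, 11.54 and 11.50, a fall of 5.63. Klrc1, a natural killer receptor, and Ly6c1 fell by 3.88 and 4.35. Of 22 chemokine receptor and trafficking genes 15 rose and 4 fell (median 0.66, or -0.26 relative to the T cell genes).

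Of 21 genes linked to T cell anergy, the unresponsive state after antigen without costimulation, 10 rose and 5 fell (median 0.15, or -0.76 relative to the T cell genes). Among all tested genes 23.3% rose and 24.2% fell, with a relative median of -0.89. Dtx1, a ubiquitin ligase downstream of NFAT, read 8.94, 9.14 and 9.16 in primed and 6.59, 7.04 and 6.62 in unimmunised arrays, a rise of 2.32 (SE 0.13, adjusted p = 7.51e-09). Cblb, another ligase, rose by 0.89, and its sign turned relative to the T cell genes (-0.02). Nedd4, also a ligase, read 5.01, 5.16 and 4.87 against 8.96, 8.76 and 8.95, a fall of 3.88 (SE 0.21, adjusted p = 7.38e-09), and it averaged 7.69 in unimmunised CD11c+ arrays. Rgs2, a regulator of G protein signals, fell by 2.34. Ctla4, Egr2 and Izumo1r, described above, belong to this list too.

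DNA replication genes were lower in primed preparations. Of 38 tested 0 rose and 32 fell (median -0.64), and all 38 were lower relative to the T cell genes, as were 90.5% of all genes. Cdc6, which loads the replicative helicase onto origins and whose promoter is shown above, read 7.27, 7.24 and 7.20 in primed and 8.58, 8.82 and 8.86 in unimmunised arrays, a fall of 1.52 (SE 0.13, adjusted p = 5.24e-07). Its partner Cdt1 fell by 1.05. The helicase subunits Mcm6, Mcm7 and Mcm5 fell by 1.11, 0.87 and 0.72. Gins1, Prim2 and Pola1, of the fork and the primase complex, fell by 1.45, 0.97 and 0.76. The call of Pola1 was lost without unimmunised replicate 3 (adjusted p = 0.0539). In CD11c+ cells, taken from the same pooled tissues in both groups, priming called 23 of these genes higher and 0 lower (median 0.42), against 24.8% of all genes higher and 11.8% lower there. The difference between the cell types was called for 35 of the 38, where it was called for 42.1% of all genes.

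Mitosis genes fell in part. Of 49 tested 1 rose and 19 fell (median -0.38). Relative to the T cell genes all 49 were lower (median -1.30), as were 90.5% of all genes (median -0.89). Cdk1, the kinase of mitotic entry, read 7.56, 7.35 and 7.24 against 8.46, 8.15 and 8.46, a fall of 0.98 (SE 0.14, adjusted p = 8.82e-05), and Cenpk fell by 1.47. Mki67, the proliferation marker Ki-67, was high in both groups at 11.04, 11.12 and 11.05 against 11.21, 11.21 and 11.27, and it did not pass (-0.16, adjusted p = 0.405). Mki67 was called lower relative to the T cell genes (-1.08, adjusted p = 1.54e-05). Smc4, a condensin subunit, was the member that rose, by 0.56, and its sign turned relative to the T cell genes (-0.36). In CD11c+ cells priming called 44 of these genes higher and 0 lower (median 0.91), beside the 24.8% of all genes called higher there. Of 24 G1 regulators and cell cycle inhibitors 7 rose and 8 fell (median -0.16), and 22 were lower relative to the T cell genes. As deposited, 23.3% of all genes rose and 24.2% fell. Cdk6, Ccne1 and E2f8 fell by 1.01, 0.98 and 1.30, and Rbl2, a pocket protein of resting cells, rose by 1.09 with no call relative to the T cell genes (0.17). The unimmunised arrays also carried transcripts of red cell and granulocyte precursors, which divide. Their part in these falls was not tested.

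**Figure D3:**
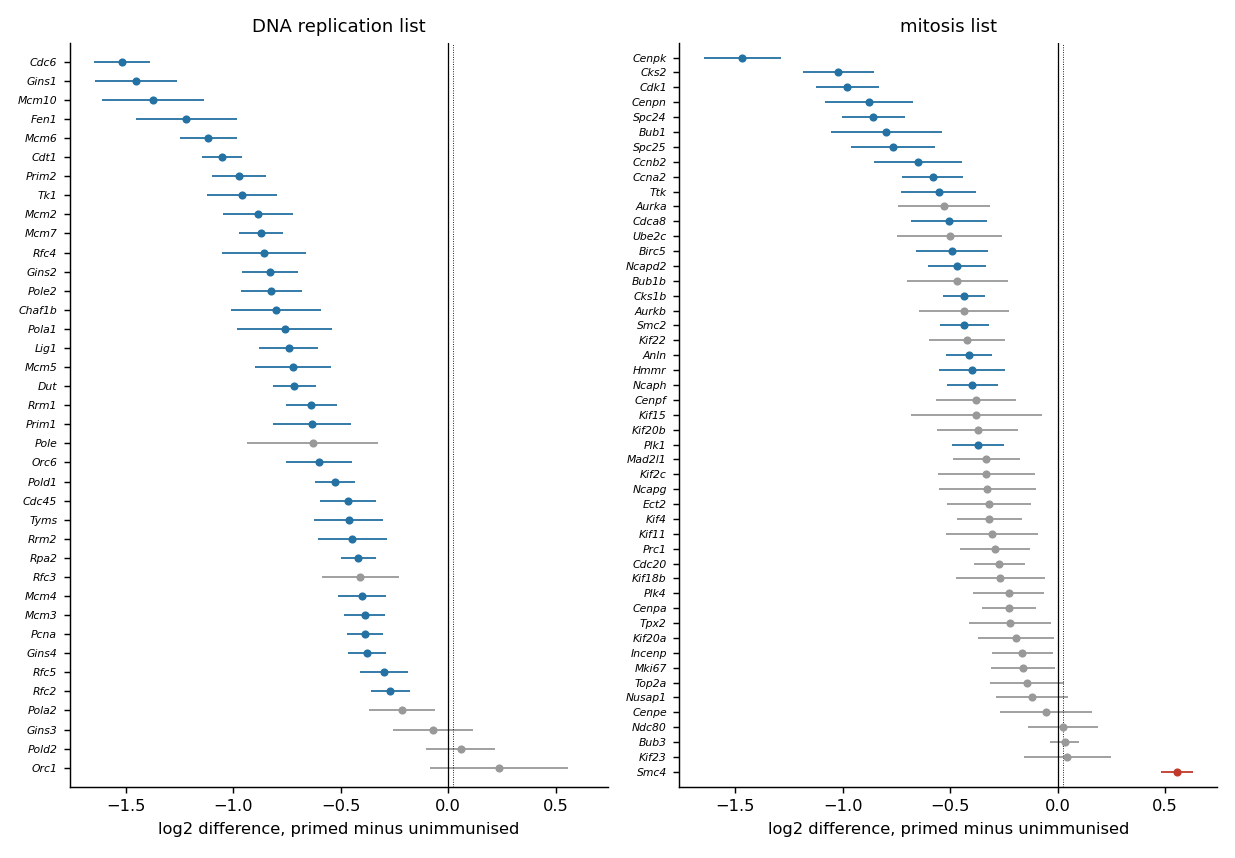
Log2 difference of primed minus unimmunised CD4+ preparations for each gene of the DNA replication and mitosis lists, with standard errors, blue for genes called lower, red for those called higher and grey for the others, and a dotted line at the median of all genes. Of the replication genes 32 of 38 fell and of the mitosis genes 19 of 49, while Smc4 was the member that rose as deposited and was lower relative to the T cell genes.

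As deposited, the metabolic lists had medians between -0.35 and 0.18. The Myc and oxidative phosphorylation lists held a larger share of falls than all tested genes, of which 23.3% rose and 24.2% fell. Relative to the T cell genes, 90.5% of all tested genes were lower, with a median of -0.89. Of 19 glycolysis genes 9 rose and 5 fell (median 0.08, or -0.83 relative to the T cell genes). Hif1a, the hypoxia factor that drives glycolysis in effector cells, read 9.27, 8.98 and 9.30 against 8.05, 8.03 and 7.88, a rise of 1.20. Pfkp rose by 1.01, with no call relative to the T cell genes (0.089). Pkm and the glucose transporter Slc2a1 rose by 0.85 and 0.73, and both changed sign relative to the T cell genes (-0.06 and -0.19). Hk2 and the lactate transporter Slc16a1 fell by 1.15 and 1.46. Of 63 oxidative phosphorylation genes 0 rose and 25 fell by small amounts (median -0.16), and all 63 were lower relative to the T cell genes (median -1.08), with Atp5g1 at -0.76 and Cycs, cytochrome c, at -0.52. Of 25 Myc and amino acid transport genes 5 rose and 13 fell (median -0.35), and 22 were lower relative to the T cell genes (median -1.27). Myc, the growth regulator, read 8.37, 8.58 and 8.22 against 9.159, 8.999 and 9.0, a fall of 0.66 (SE 0.10, adjusted p = 0.000147). Odc1 fell by 1.52, Slc43a3 fell by 2.15, and the transporter gene Slc7a6 rose by 1.07 with no call relative to the T cell genes (0.16). Of 66 cytosolic ribosomal protein genes 2 rose and 3 fell, among them Rpl14 by 0.54, and all 66 were lower relative to the T cell genes (median -0.92). Of 17 cholesterol synthesis genes 4 rose and 1 fell (median 0.18, or -0.74 relative to the T cell genes).

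Of 21 genes of the type I interferon response 2 rose and 6 fell (median -0.29), near the 24.2% of all genes that were lower. The share of all genes that were higher was 23.3%. Relative to the T cell genes 20 were lower, as were 90.5% of all genes. Rsad2 and Cmpk2 were among those that fell, by 2.69 and 1.43. Of 18 heat shock genes 1 rose and 7 fell, and all 18 were lower relative to the T cell genes. Hspa1b read 3.38, 3.36 and 3.28 in primed and 5.87, 5.80 and 7.36 in unimmunised arrays, so unimmunised replicate 3 was the highest, and Hsp90aa1 fell by 0.82. Of 15 BCL2 family genes 5 rose and 2 fell, and 13 were lower relative to the T cell genes. The survival genes Bcl2a1a and Bcl2l1 rose by 0.90 and 0.62, and both changed sign relative to the T cell genes (-0.02 and -0.29), while Bid, which promotes cell death, fell by 1.03. Of 29 cytoskeleton and adhesion genes 14 rose and 5 fell (median 0.23, or -0.69 relative to the T cell genes). Vim rose by 0.54, with a changed sign relative to the T cell genes (-0.38), and Anxa1 and Vcl fell by 3.89 and 2.84.

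**Figure D4:**
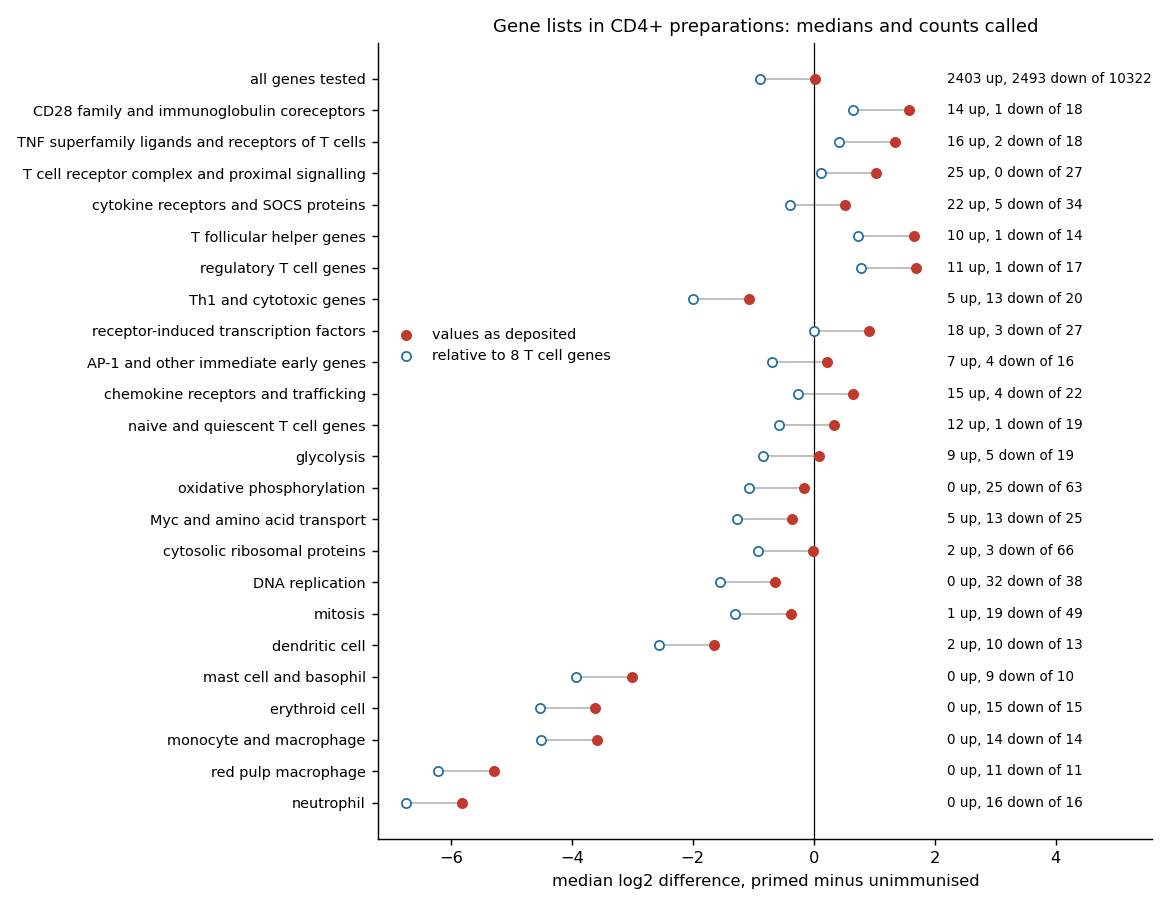
Median log2 difference of each gene list, filled points as deposited and open points relative to 8 T cell genes, with the numbers of members called as deposited. The coreceptor, TNF family, receptor complex, follicular helper and regulatory lists stay above 0 in both (with Cd247 left out of the reference, the receptor complex list turns to -0.011), and the naive, chemokine receptor, cytokine receptor and glycolysis lists are among those that change sign.

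Among the largest rises outside these lists, Synpo, an actin-binding protein, read 9.16, 8.49 and 9.02 in primed and 4.25, 4.22 and 4.47 in unimmunised arrays, a difference of 4.58 (SE 0.23, adjusted p = 3.5e-09) from below the array medians. The transcript 1500009L16Rik rose by 4.56 and the calcium protease gene Capn3 by 3.56, both from means below the array medians. From unimmunised means above the medians, Syt11, a synaptotagmin, rose by 3.45, Hectd2, a ubiquitin ligase, by 3.25, Adam19, a membrane protease, by 2.80 and Lpxn, a focal adhesion protein, by 2.66. All 7 remained higher relative to the T cell genes, by 1.74 to 3.66, a scaling that subtracts 0.917 from each rise. Their means with control IgG lay between 7.09 and 9.03.

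Erythroid genes were lower. The 15 tested fell (median -3.61), 14 of them more than 2-fold, and 7 had a primed mean at or below the highest array median. For those 7 the fall is no support for a direction, because they could enter the test through groups in which they are high. With the filter on lymph node arrays 9 were tested and 9 fell. Their summed level was 10.11 to 10.19 in primed and 13.85 to 14.04 in unimmunised arrays. Klf1, the erythroid Krüppel-like factor, read 3.30, 2.92 and 2.99 in primed and 9.34, 9.05 and 9.30 in unimmunised arrays, a difference of -6.16 (SE 0.13, adjusted p = 1.15e-12). Primed arrays were below the array medians, and none of the 3 was above 3.30. Slc4a1, the anion exchanger of red cells, read 4.07, 2.81 and 3.72 against 10.34, 10.53 and 10.95. Epor, the erythropoietin receptor, fell by 4.25, Ermap by 5.96 and Rhag, of the Rh antigen complex, by 3.59. The carbonic anhydrase genes Car1 and Car2 fell by 6.18 and 6.56. The globin genes Hba-a1 and Hbb-b2 stayed above the medians in primed arrays, at 5.95 ± 0.54 and 5.90 ± 0.64 (SD, n = 3). In unimmunised CD11c+ arrays Klf1 and Car1 averaged 5.50 and 4.57, lower than the 9.23 and 9.53 of unimmunised CD4+ arrays, while Hba-a1 and Hbb-b2 averaged 12.67 and 12.78 there, higher than 10.91 and 11.99.

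Neutrophil genes were lower too. The 16 that passed the filter fell more than 2-fold (median -5.82), 15 of them to a primed mean at or below the highest array median. Such genes entered the test through groups in which they are high, so the count describes the unimmunised arrays and is no support for a direction. With the filter on lymph node arrays 7 were tested and 7 fell. That filter includes the tolerised arrays, where S100a8 and Chil3 averaged 7.08 and 6.38. This count is therefore no support for a direction either. S100a8, a subunit of calprotectin, read 3.43, 3.31 and 3.93 in primed and 11.54, 11.60 and 11.64 in unimmunised arrays, a difference of -8.04 (SE 0.50, adjusted p = 2.55e-08). S100a9 read 4.77, 3.88 and 5.30 against 12.16, 11.94 and 12.07. The granule genes Ngp, Camp, Ltf and Lcn2 fell by 7.66, 7.23, 6.62 and 6.47, and Chil3 by 6.85. Mpo and Elane, which are made in granulocyte precursors, fell by 7.29 and 4.15. In CD11c+ cells the direction was the opposite, with 12 of the 16 called higher and 0 lower after priming (median 2.01; all genes 24.8% and 11.8%), and S100a8 going from 9.28 to 11.67. The difference between the cell types was called for all 16, and for 42.1% of all genes. The CD4+ fall described above is part of that difference, so the count is no independent support.

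Genes of macrophages were lower as well. The 11 red pulp macrophage genes that passed the filter fell (median -5.29), each to a primed mean at or below the highest array median, so the filter left them no other direction. With the filter on lymph node arrays 4 were tested and 4 fell. Their primed means were at that level too, so this count is no support for a direction either. Slc40a1, the iron exporter ferroportin, read 3.12, 3.37 and 3.03 against 10.66, 10.96 and 10.81, and Spic, the transcription factor of these cells, 2.68, 2.54 and 2.86 against 8.23, 8.38 and 8.31. The haemoglobin receptor gene Cd163 and the haem oxygenase gene Hmox1 fell by 5.88 and 4.88. The 14 monocyte and macrophage genes tested fell (median -3.59), as did the 10 that passed the filter on lymph node arrays, among them Cybb by 5.85, Fcgr1 by 4.30 and Tyrobp by 4.44. Of the 14, 8 had a primed mean at or below the highest array median. Such genes could enter through groups in which they are high, so these counts are no support for a direction. Of all tested genes 24.2% were lower. Mrc1, the mannose receptor, fell by 6.35, and the myeloid genes Sirpa, Gfra2, Mpeg1 and Aif1 by 4.76, 4.69, 4.58 and 4.39. In unimmunised CD11c+ arrays Slc40a1, Spic and Cd163 averaged 12.21, 10.73 and 11.31, above their CD4+ means of 10.81, 8.31 and 9.68.

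**Figure D5:**
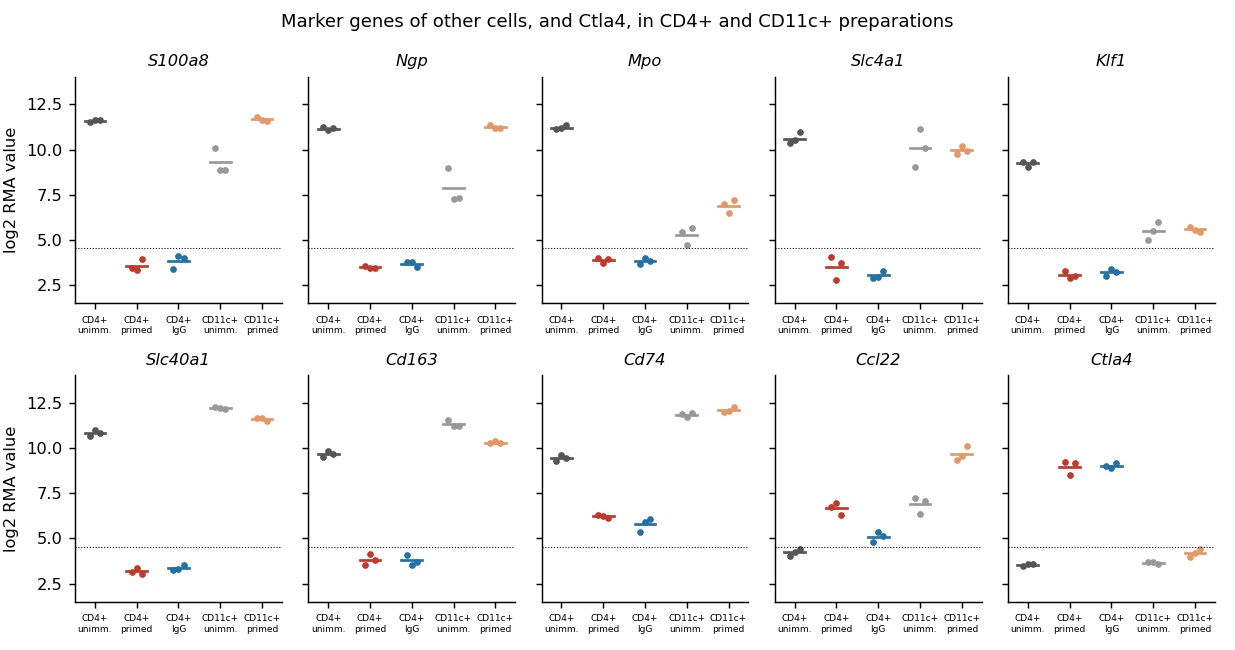
Log2 values of marker genes of other cells and of Ctla4 in CD4+ and CD11c+ preparations, 3 arrays per group as points with a bar at their mean, and the highest array median as a dotted line. S100a8 and Slc40a1 are at 3.93 or below in primed CD4+ arrays and above 10 in unimmunised CD4+ arrays, and Ctla4 is the reverse.

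Dendritic cell genes were mixed. Of 13 tested 2 rose and 10 fell (median -1.64). Itgax, which encodes CD11c, read 4.05, 3.78 and 3.47 against 7.01, 7.02 and 7.04, a fall of 3.26 (SE 0.30, adjusted p = 1.2e-06). The class II genes Cd74 and H2-Ab1 fell by 3.21 and 3.19, with primed means of 6.21 and 6.001. The members that rose were Ccl22 and Fscn1, genes of dendritic cells that have matured and moved to lymph nodes. Ccl22 read 6.71, 6.95 and 6.30 against 4.01, 4.26 and 4.42, a rise of 2.43 (SE 0.34, adjusted p = 5.8e-05). Fscn1 read 8.38, 8.21 and 8.12 against 6.62, 6.27 and 5.83, a rise of 1.99. With control IgG they averaged 5.09 ± 0.30 and 6.73 ± 0.40 (SD, n = 3), and in CD11c+ cells 9.65 and 11.07 after priming.

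The remaining lists were small. Of 10 mast cell and basophil genes 9 fell (median -3.01), with Mcpt8 at -2.77, and all 4 eosinophil genes fell. The primed mean was at or below the highest array median for 9 of the 10 and for all 4, so these counts are no support for a direction. With the filter on lymph node arrays, 6 mast cell and basophil genes were tested and 5 fell, and 1 eosinophil gene was tested and fell. Genes could pass that filter through node groups other than the primed one, so these counts are no support either. Of 9 progenitor genes 7 fell (median -3.47), and of the 4 that passed the filter on lymph node arrays 2 fell (median -0.45). The members that fell included Lmo2, Kit and Gata2 by 6.34, 3.30 and 3.47. Fcer1g, an Fc receptor chain of several innate cells, fell by 4.69. B cell genes were low in both groups. Only 3 of 13 listed B cell genes passed the filter, and Cd79b and Cd79a averaged 4.34 and 4.63 in primed and 5.88 and 5.20 in unimmunised arrays. Neither of the 2 CD8 genes passed the test. Of 5 plasmacytoid dendritic cell genes 3 fell, of 4 platelet genes 3, and of 3 innate lymphoid genes 2. Of 5 stromal and 4 skin, gland, fat and muscle genes, 1 each rose and 1 each fell. Among all tested genes 23.3% rose and 24.2% fell.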

How the data were processed

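CD4+ and CD11c+ preparations were profiled on Affymetrix mouse PM arrays after whole-transcriptome amplification with the NuGEN Ovation Pico kit, per the labels' protocols. The authors deposited values from RMA, per the submitters' processing notes. That the deposited values are log2 was read from their range of 1.667 to 13.242. Its version is not stated in the labels, and scanner files were not used here. Probe sets with 1 gene symbol in the platform annotation were kept, 28898 of 45118, and 551 with several symbols and 15669 with none were left out. Of 17097 genes, 16936 matched the RefSeq gene table.

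Groups came from the sample titles. limma 3.58.1 (R 4.3.3) was fitted over the 15 CD4+ arrays (5 groups of 3) to genes that exceeded the array median on 3 or more of them, two-sided with Benjamini-Hochberg adjustment over 10322 genes and a threshold of 0.05. The groups were unimmunised, primed, primed with control IgG, primed with abatacept, and orally tolerised. More than 2-fold means treat at a log2 change of 1. CD11c+ arrays entered a fit with the CD4+ arrays for the difference between cell types. Alternatives covered the filter, probe set choice, scaling, weights, a replicate block, an Eif2s3y covariate and each array left out. On simulated data for 10322 genes, 50%, 90%, 96% and 100% of 50 genes each changed by 0.5, 1, 2 and 4 log2 units were recovered. Of 180 genes called there, 12 were unchanged. Far fewer genes changed in the simulation than the 47.4% called here, so these rates need not hold for this comparison. Figures used matplotlib 3.10.9.

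Members and gene lists were chosen with earlier results of these data known. The named genes are, of called genes whose groups do not overlap, the 12 largest rises and 12 largest falls, the same among genes with both group means above the highest array median, members of the lists, and genes whose probe sets were called in opposite directions. The labels do not tie the replicates to separate mice, so the spread behind each p-value may be technical only. With 3 arrays per group the precision is limited.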

Additional observations from a re-analysis of the deposited data

Results flagged for a closer look

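For the genes with the largest changes, the priming difference in CD4+ preparations was set against that in CD11c+ preparations in 1 fit. The difference between the cell types passed the test for each gene named in the list that follows (limma, adjusted over all genes tested). It also passed for 42.1% of all genes. The named genes were chosen for a large CD4+ difference, which is part of the difference tested, so their passing is no independent support. The difference between the cell types did not pass for 2 of the 12 largest rises, the Y-linked Eif2s3y (0.06, adjusted p = 0.939) and Kdm5d (0.80, adjusted p = 0.197). The CD11c+ cells came from the same pooled tissues in both groups, whereas the CD4+ cells did not, so cell type and tissue cannot be told apart in this difference. Among genes higher in primed CD4+ preparations, the CD4+ minus CD11c+ difference was 4.89 for Ctla4, 4.52 for Tnfsf11, 4.37 for 1500009L16Rik and 3.69 for Icos. It was 3.53 for Capn3, 3.48 for Ccr4, 3.29 for Dusp4, 3.26 for Synpo, 2.52 for Izumo1r and 2.48 for Il2ra. Among genes lower in primed CD4+ preparations, the granulocyte genes stood farthest apart, with -11.05 for Lcn2, -11.03 for Ngp, -11.02 for Chil3, -10.75 for Camp, -10.42 for S100a8, -10.34 for Ltf, -9.18 for S100a9 and -8.91 for Mpo. The red cell genes Slc4a1 and Car2 gave -6.94 and -6.45, and the macrophage genes Slc40a1 and Mrc1 gave -7.03 and -5.53.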

How the results depend on the processing

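Of 10322 genes, 2403 were higher, 2493 lower, 149 more than 2-fold higher and 642 more than 2-fold lower. Relative to the T cell genes these counts became 221, 9341, 36 and 1984. With a filter on the 12 lymph node arrays, 324 of 9852 genes were more than 2-fold lower. With the Eif2s3y level as a covariate, 0 were called in any of the 4 counts; it varied by at most 0.345 within a group against 6.06 between the groups, and the median SE rose from 0.122 to 1.99. Leaving out 1 array gave 1978 to 2282 higher, 2165 to 2385 lower, 116 to 143 more than 2-fold higher and 589 to 611 more than 2-fold lower. Same-numbered arrays did not deviate together across all genes (correlations 0.0086, -0.0028 and -0.016). That shows no large shared effect, but it cannot show that the numbers pair nothing. A replicate block gave 2380, 2456, 143 and 637.

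Relative to the T cell genes, list medians turned to -0.0025 for receptor-induced transcription factors, -0.26 for trafficking, -0.33 for Th17, -0.39 for cytokine receptors, -0.45 for Th2, -0.50 for cytokines, -0.58 for naive genes, -0.69 for the cytoskeleton, -0.70 for immediate early genes, -0.74 for cholesterol synthesis and -0.83 for glycolysis. Genes that turned were Nfatc1 (-0.0025), Bcl2a1a (-0.018), Cblb (-0.024), Pkm (-0.063), Satb1 (-0.11), Lef1 (-0.16), Slc2a1 (-0.19), Cd3e (-0.21), Ebi3 (-0.22), Bcl2l1 (-0.29), Coq8a (-0.31), Bach2 (-0.32), Smc4 (-0.36), Vim (-0.38), Sulf2 (-0.49), Ptprc (-0.56), Prf1 (-0.62), Nr4a1 (-0.68), Jun (-0.77), Cd247 (-0.87) and Malt1 (-0.88). This follows from subtracting 0.917 from every difference. With Cd247 left out of the reference, an alternative chosen after seeing the data, the 4 counts were 179, 9614, 32 and 2742. List medians were -0.011 for the receptor complex, -0.015 for T cell markers, -0.13 for receptor-induced transcription factors, -0.39 for trafficking, -0.45 for Th17, -0.52 for cytokine receptors, -0.57 for Th2, -0.62 for cytokines, -0.70 for naive genes, -0.82 for the cytoskeleton and for immediate early genes, -0.87 for cholesterol synthesis and -0.96 for glycolysis. The genes turned were Il16 (-0.0078), Prkcq (-0.027), Pfkp (-0.036), Stat4 (-0.040), Cd4 (-0.078), Bcl6 (-0.11), Nfatc1 (-0.13), Bcl2a1a (-0.14), Cblb (-0.15), Pkm (-0.19), Satb1 (-0.24), Lef1 (-0.29), Slc2a1 (-0.32), Cd3e (-0.33), Ebi3 (-0.35), Bcl2l1 (-0.42), Coq8a (-0.44), Bach2 (-0.44), Smc4 (-0.49), Vim (-0.50), Sulf2 (-0.61), Ptprc (-0.68), Prf1 (-0.75), Nr4a1 (-0.80), Jun (-0.90), Cd247 (-0.9995) and Malt1 (-1.002). That reference also ended the relative calls of Cd3g, Cd40lg, Tnfsf14, Il2, Cish, Socs3, Cxcr5, Nfkb2, Nr4a3 and Hif1a. The mean of all probe sets turned Prf1 (-0.61), Coq8a (-1.05) and Sulf2 (-1.11). With 1 array left out, uncalled Malt1 ranged from -0.061 (without unimmunised replicate 1) to 0.167, and uncalled Egr3 from -0.1277 to 0.0023 (without primed replicate 1); the cause was not tested. Levels at or below the array medians limit the size of falls.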

Other observations

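Primed replicate 2 read lowest of the 3 primed arrays for 15 of 17 regulatory T cell genes (88.2%), 14 of 18 TNF superfamily genes (77.8%) and 12 of 18 CD28 family and coreceptor genes (66.7%). The share was 45% over all tested genes, 40.7% for the receptor complex list, 26.3% for DNA replication and 20.4% for mitosis. Its median deviation from the mean of the primed arrays was -0.44 over the regulatory T cell genes and -0.03 over all tested genes. The median difference of the regulatory T cell list was 1.70 with this array and 1.92 without it.

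Of 4297 genes with several tested probe sets, 25 had probe sets called in opposite directions. Coq8a differed by 0.61 at the probe set used here and by -2.71 at another, and Sulf2 by 0.43 and -2.65. Prf1, which encodes perforin and is counted above among the Th1 and natural killer genes that rose, differed by 0.29 at the brighter probe set and by -1.51 at the dimmer one. The direction of these 3 genes therefore depends on the probe set.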
